A study of Mus musculus with 6 samples.

Results

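Integrins are cell surface receptors made of an alpha and a beta chain, and laminins are secreted proteins of an alpha, a beta and a gamma chain that form much of the basement membrane under epithelial cells. All genes whose mouse symbol is Itga, Itgb, Lama, Lamb or Lamc followed by digits alone were selected. They number 30, with 51 array probes, of 23783 genes named on the arrays. There are 11 integrin alpha, 8 integrin beta and 11 laminin chain genes, and integrins with a letter in the symbol (Itgav, Itgam and others) are described apart.

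The 6 cultures were organoids, 3-dimensional epithelial cultures, from mouse fallopian tube, and each was measured once on a one-colour Agilent array. The tumour-derived Pik3ca/Trp53 culture (Pik3caH1047R with Trp53 loss) was grown back from a subcutaneous tumour labelled adenocarcinoma. Its source was the Pik3ca/Trp53 culture before inoculation. The tumour-derived Apc/Trp53 culture (Apc580D with Trp53 loss) came from a growth labelled cyst, and its source was the Apc/Trp53 culture before inoculation. The Trp53 loss culture carried neither Pik3caH1047R nor Apc580D, and the control culture was Trp53flox/flox with the vector pLKO.1, before inoculation. The labels of the other cultures name Trp53 loss without the way it was made, and give no age of the mice and no number of animals or clones behind a culture. The growth medium held EGF, R-spondin1, Noggin, Y27632 (a ROCK inhibitor), Jagged-1 and CHIR-99021 (a GSK3 inhibitor).

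The alpha chain largely sets which ligand an integrin binds. Integrins with the alpha3, alpha6 or alpha7 chain bind laminin, those with alpha1, alpha2, alpha10 or alpha11 bind collagen, and several with alpha5, alpha8, beta3, beta5, beta6 or beta8 bind the RGD sequence of fibronectin, vitronectin and other ligands. The alpha6 beta4 integrin anchors basal epithelial cells to laminin-332, a trimer that holds the Lama3 and Lamb3 chains, in hemidesmosomes. Lama5 with Lamb1 or Lamb2 and Lamc1 forms the laminin-511 and laminin-521 found under most adult epithelia.

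With 1 array for each culture, differences between 2 cultures have no replicate check and no p-value. Levels are log2 intensity minus the 75th percentile of the gene probes of that array, so 0 is that percentile. Levels are compared between cultures for the same probe and never between probes. A signal not well above its local background, by the scanner software, is called dim and is in effect only an upper limit. A difference is the mean over a gene's probes that were not dim on both arrays compared. A dim signal was raised to the array's floor, its lowest level among spots flagged as well above background, and the difference is then given as "at least" that fold. The SD given beside some differences is that between probes of the gene and says nothing of the spread between cultures. A size of at least 1 log2 unit, a 2-fold difference, was counted. As total RNA of whole cultures was measured, fewer cells of a type and less RNA per cell cannot be told apart.

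Between 45.44% and 50.97% of probes were well above background on an array, no spot was saturated, and the median SD between copies of the same probe was 0.0389 to 0.081 (log2). The Trp53 probe read -1.05 in tumour-derived Pik3ca/Trp53, dim in Pik3ca/Trp53, dim in tumour-derived Apc/Trp53, -2.99 in Apc/Trp53, dim in Trp53 loss and 1.46 in control, so control was the highest of the 6. Where this probe lies relative to the deleted part was not examined. All 6 arrays lay on 1 slide. The control and both tumour-derived arrays lay in row 2 and the other 3 in row 1. Slide row therefore cannot be told apart from the comparison of any of those 3 cultures with control. Nor can it be told apart from the comparison of each tumour-derived culture with its source. The 9 epithelial markers were well above background on every array.

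All 30 genes had a probe, and 19 had one that was well above background on all 6 arrays. Another 9 were above background on 1 to 5 arrays, and Itgb8 and Lama2 on none. The numbers per array were alike, with 24 in tumour-derived Pik3ca/Trp53, 22 in Pik3ca/Trp53, 23 in tumour-derived Apc/Trp53, 23 in Apc/Trp53, 23 in Trp53 loss and 22 in control. Itga4, Itga9, Itga11 and Lamc3 were above background in 1 culture each, as the plot of levels by gene shows.

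**Figure D1:**
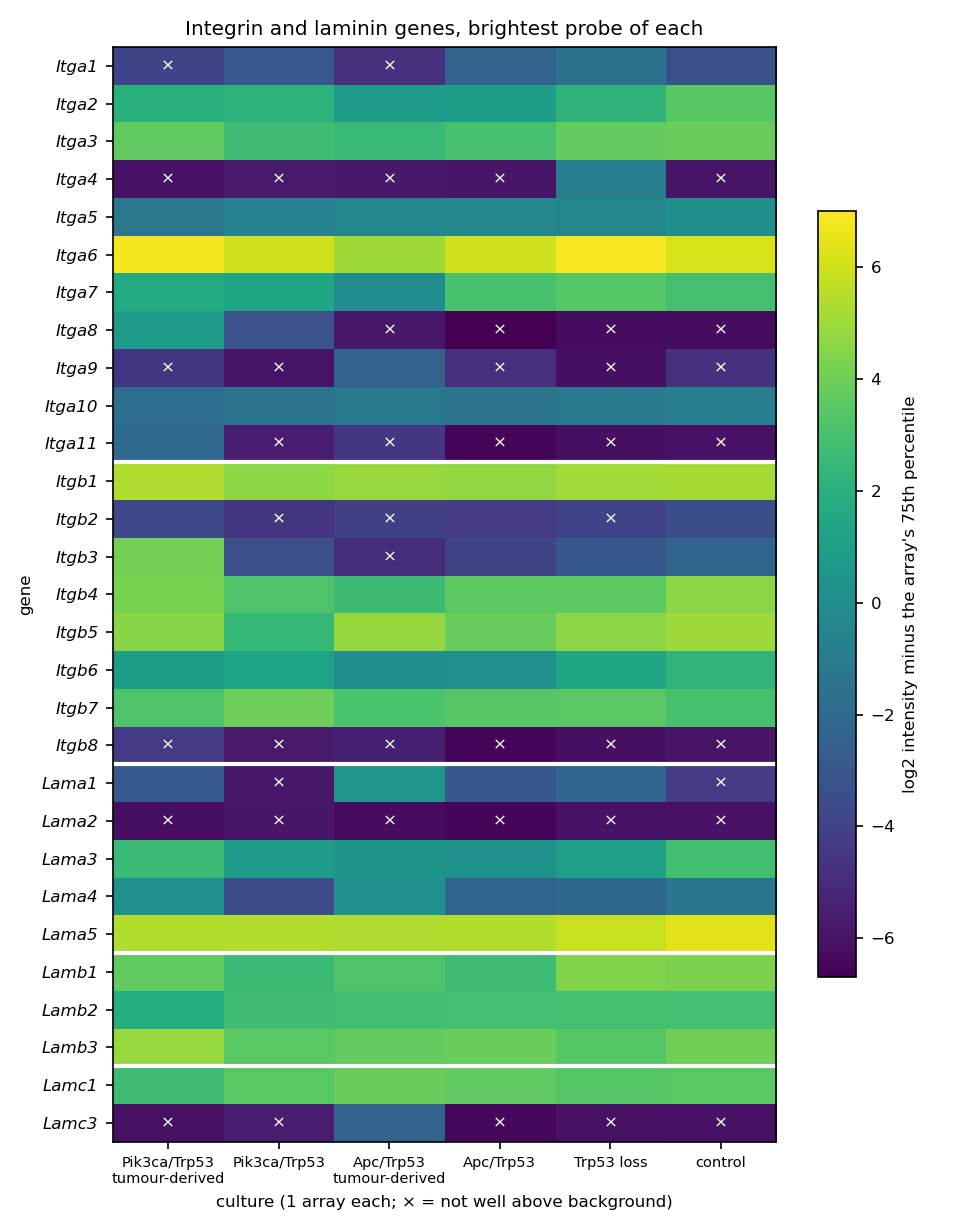
Levels of 29 of the 30 integrin and laminin genes (rows) in 6 cultures (columns), as log2 intensity minus the array's 75th percentile for the probe of each gene with the highest mean signal; crosses mark signals not well above background. Itgb3, Itga8 and Itga11 stand out in the tumour-derived Pik3ca/Trp53 column, Lama1, Itga9 and Lamc3 in the tumour-derived Apc/Trp53 column, and Itga4 in the Trp53 loss column.

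In the tumour-derived Pik3ca/Trp53 culture, 7 of 25 genes compared were at least 2-fold higher than in its source, where 11.3% of all genes were, and 3 were at least 2-fold lower, where 9.45% of all genes were. The higher genes were Itgb3, Itga8, Lama4, Itgb5, Lama3, Itga11 and Lamb3, and the lower ones Lamc1, Itga1 and Lamb2. The median difference was 0.70, against -0.06 for all genes. In the tumour-derived Apc/Trp53 culture, 5 of 25 were higher than in its source (9.27% of all genes) and 1 was lower (6.62% of all genes). Lama1, Lama4, Lamc3, Itga9 and Itgb5 were higher and Itga7 lower, and the median of -0.08 was near that of all genes, -0.05. Only Lama4 and Itgb5 were at least 2-fold higher in both.

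Before inoculation, no gene of the 24 compared was 2-fold higher in Pik3ca/Trp53 than in Trp53 loss (7.95% of all genes were), and 6 were lower (6.18% of all genes). In Apc/Trp53 against Trp53 loss, none of 24 was 2-fold higher (3.55% of all genes) and 4 were lower (4.47% of all genes). The medians were -0.42 and -0.49, with 0.00 for all genes in both. Trp53 loss against control had 3 of 24 higher (4.43% of all genes) and 4 lower (5.7% of all genes), with a median of -0.35 against 0.07 for all genes. Every comparison with Trp53 loss, here and below, uses its single array, so these counts and medians are not independent. Itga4, Itga1 and Lama1, the 3 higher in Trp53 loss than in control, were among the 6 lower in Pik3ca/Trp53. Itga4 was also among the 4 lower in Apc/Trp53. The plot of differences by comparison shows that most genes lay within 2-fold in each.

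**Figure D2:**
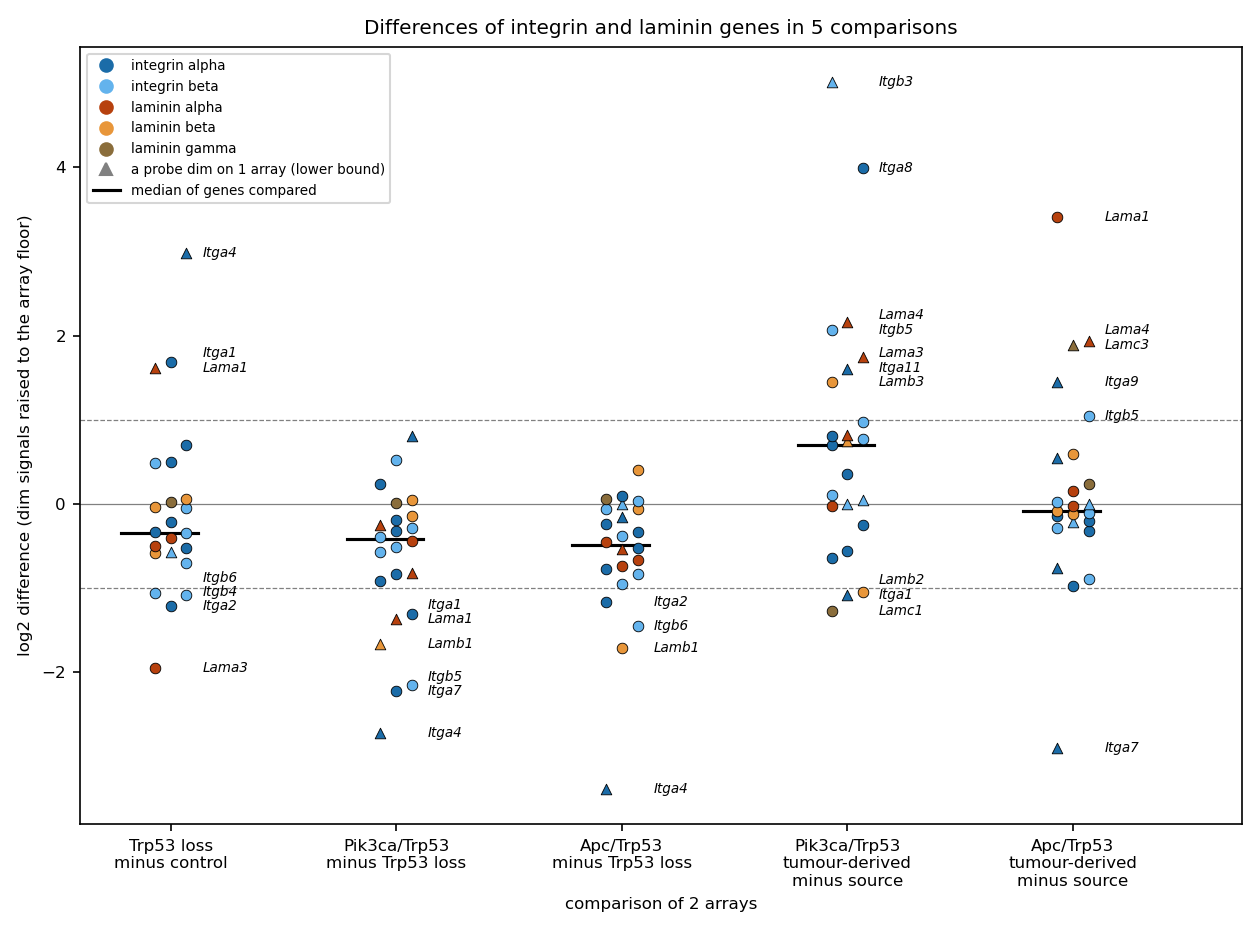
Differences of the integrin and laminin genes compared (points, coloured by chain class) in 5 comparisons of 2 arrays each, as log2 values; triangles are lower bounds with a dim signal, black bars are medians over all genes compared, including 1 gene with no point, and dashed lines mark 2-fold. The median lies at 0.70 for tumour-derived Pik3ca/Trp53 minus its source, and between -0.49 and -0.08 for the other 4.

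When each array was scaled to its median probe instead, the all-gene median became 0.23 in Trp53 loss minus control, -0.18 in tumour-derived Pik3ca/Trp53 minus its source, and -0.37 in tumour-derived Apc/Trp53 minus its source. The count in that last comparison then became 4 higher and 4 lower, as Itgb5 left the higher genes and Itga6, Itgb4 and Itga1 joined Itga7 among the lower. Trp53 loss against control then had 3 higher and 2 lower, without Itgb4 and Itgb6. All genes called 2-fold split into 33.7% higher under this scaling, against 58.4% under the 75th percentile, in the tumour-derived Apc/Trp53 comparison, and into 58.3% against 43.7% in Trp53 loss minus control.

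Lama3, the alpha chain of laminin-332, was high in 2 cultures. Its brighter probe read 2.64 in tumour-derived Pik3ca/Trp53, 0.85 in Pik3ca/Trp53, 0.37 in tumour-derived Apc/Trp53, 0.28 in Apc/Trp53, 1.05 in Trp53 loss and 2.87 in control. Control and tumour-derived Pik3ca/Trp53 formed the high end, with the other 4 cultures at 1.05 or below. The second probe read -1.95 in tumour-derived Pik3ca/Trp53, dim in Pik3ca/Trp53, -3.83 in tumour-derived Apc/Trp53, -4.04 in Apc/Trp53, -3.33 in Trp53 loss and -1.24 in control, with the same 2 cultures highest. Lama3 was 3.88-fold lower in Trp53 loss than in the control culture (log2 difference -1.95 ± 0.20, SD between 2 probes) and at least 3.33-fold higher in tumour-derived Pik3ca/Trp53 than in its source. In Apc/Trp53 it was 6.47-fold lower than in control, and 5.82-fold lower in the tumour-derived Apc/Trp53 culture.

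Lamb3, the beta chain of the trimer, had its high value in tumour-derived Pik3ca/Trp53. One probe read 4.87 there, 3.51 in Pik3ca/Trp53, 3.69 in tumour-derived Apc/Trp53, 3.88 in Apc/Trp53, 3.40 in Trp53 loss and 4.05 in control. The other read 3.43 in tumour-derived Pik3ca/Trp53, 1.88 in Pik3ca/Trp53, 2.15 in tumour-derived Apc/Trp53, 2.20 in Apc/Trp53, 1.88 in Trp53 loss and 2.39 in control. By both probes tumour-derived Pik3ca/Trp53 was highest and control next. The difference from its source was 2.73-fold (1.45 ± 0.13, SD between 2 probes), and in the other 4 comparisons Lamb3 lay within 2-fold.

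The chains of the alpha6 beta4 receptor were bright throughout and moved in opposite directions in the tumour-derived cultures. The Itgb4 probe read 4.22 in tumour-derived Pik3ca/Trp53, 3.25 in Pik3ca/Trp53, 2.67 in tumour-derived Apc/Trp53, 3.57 in Apc/Trp53, 3.54 in Trp53 loss and 4.62 in control. It was highest in control and 2.12-fold lower in Trp53 loss. Against its source, Itgb4 was 1.96-fold higher in tumour-derived Pik3ca/Trp53 (0.97) and 1.86-fold lower in tumour-derived Apc/Trp53 (-0.90), both just under the 2-fold limit.

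Itga6 followed the same order within each tumour pair. Its brightest probe read 6.79 in tumour-derived Pik3ca/Trp53, 5.99 in Pik3ca/Trp53, 5.07 in tumour-derived Apc/Trp53, 5.99 in Apc/Trp53, 6.84 in Trp53 loss and 6.16 in control. Tumour-derived Apc/Trp53 was the lowest by all 3 probes, and Trp53 loss the highest, with tumour-derived Pik3ca/Trp53 next. Over the 3 probes the difference from the source was 0.81 ± 0.10 (SD) in tumour-derived Pik3ca/Trp53 and -0.98 ± 0.07 in tumour-derived Apc/Trp53. Trp53 loss exceeded control by 0.70 ± 0.20, whereas Itgb4 was lower in that comparison.

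**Figure D3:**
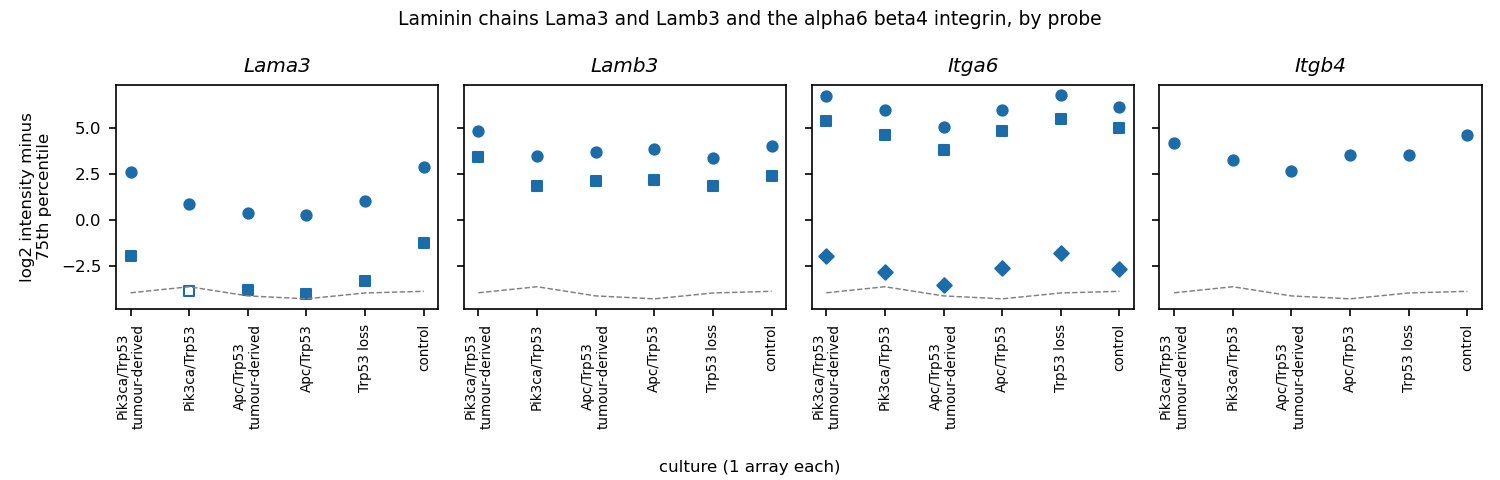
Levels of the laminin-332 chains Lama3 and Lamb3 and of the receptor chains Itga6 and Itgb4 in 6 cultures, as log2 intensity minus the array's 75th percentile. Each marker shape is a probe, open markers are dim and the dashed line is the array floor; all 4 genes are higher in tumour-derived Pik3ca/Trp53 than in its source.

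Hemidesmosomes also hold plectin (Plec), dystonin (Dst), the collagen Col17a1 and the tetraspanin Cd151, and attach to the basal keratins Krt5 and Krt14. With Cd9, another tetraspanin, these make 7 partner genes. In tumour-derived Pik3ca/Trp53 3 of 7 compared were 2-fold higher than in the source (11.3% of all genes) and none was lower (9.45%). Krt14 was 235-fold higher, with 5.52 against -2.36, Krt5 was at least 208-fold higher, with 4.06 against a dim signal, and Col17a1 was at least 6.33-fold higher. Against its source, tumour-derived Apc/Trp53 had none of 7 higher (9.27% of all genes) and 2 lower (6.62%), with Krt5 at least 3.32-fold and Krt14 2.3-fold lower. The list of basal cell markers, which shares those 3 genes, had 5 of 6 genes above background in tumour-derived Pik3ca/Trp53 and 3 of 6 in its source. Its summed linear intensity was 66.7 times the array's 75th percentile in that culture and 3.26 to 4.97 times in the other 5. Dsg3 was dim on all 6 arrays, and the other 5 were each at least 2-fold higher than in the source over their probes. Among them was Trp63, although its brightest probe read 1.59 in tumour-derived Pik3ca/Trp53 and 1.69 in its source. The part of these basal genes in the higher Lama3, Lamb3, Itga6 and Itgb4 was not tested.

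Among the general epithelial laminin chains, Lama5, the alpha chain of laminin-511 and laminin-521, read 5.40 in tumour-derived Pik3ca/Trp53, 5.43 in Pik3ca/Trp53, 5.39 in tumour-derived Apc/Trp53, 5.41 in Apc/Trp53, 5.87 in Trp53 loss and 6.37 in control. The 4 cultures with Pik3caH1047R or Apc580D were alike, below Trp53 loss and control.

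Lamb1, the beta chain of laminin-511, was low in both cultures with a second allele before inoculation. Its brightest probe read 3.66 in tumour-derived Pik3ca/Trp53, 2.63 in Pik3ca/Trp53, 3.22 in tumour-derived Apc/Trp53, 2.73 in Apc/Trp53, 4.40 in Trp53 loss and 4.32 in control. The tumour-derived cultures lay between their sources and Trp53 loss. Over 3 probes Lamb1 was at least 3.17-fold lower in Pik3ca/Trp53 than in Trp53 loss, and 3.29-fold lower in Apc/Trp53 (-1.72 ± 0.13).

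Lamb2 and Lamc1 departed from the other cultures in tumour-derived Pik3ca/Trp53 alone. Lamb2, the beta chain of laminin-521, read 1.77 there, against 2.82 in Pik3ca/Trp53, 2.83 in tumour-derived Apc/Trp53, 2.91 in Apc/Trp53, 2.96 in Trp53 loss and 2.90 in control. Lamc1, the gamma chain common to most laminins, read 2.77 in tumour-derived Pik3ca/Trp53, 3.48 in Pik3ca/Trp53, 3.89 in tumour-derived Apc/Trp53, 3.66 in Apc/Trp53, 3.40 in Trp53 loss and 3.50 in control by one probe. By the other it read -2.36 in tumour-derived Pik3ca/Trp53, against -0.51 in Pik3ca/Trp53, -0.35 in tumour-derived Apc/Trp53, -0.60 in Apc/Trp53, -0.45 in Trp53 loss and -0.59 in control. Tumour-derived Pik3ca/Trp53 was lowest by each of these probes, 2.07-fold below its source for Lamb2 and 2.43-fold for Lamc1 (-1.28 ± 0.80, SD between 2 probes). The first Lamc1 probe alone gave -0.72, and normexp background correction -0.83, both under 2-fold.

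Lama4, the alpha chain of laminin-411 and laminin-421, which are known from vessel and mesenchymal basement membranes, was higher in both tumour-derived cultures. One probe read 0.24 in tumour-derived Pik3ca/Trp53, -3.48 in Pik3ca/Trp53, 0.22 in tumour-derived Apc/Trp53, -2.24 in Apc/Trp53, -2.12 in Trp53 loss and -1.34 in control. The other read -3.03 in tumour-derived Pik3ca/Trp53, -2.87 in tumour-derived Apc/Trp53, -3.36 in Trp53 loss and -3.31 in control and was dim in both sources. Neither probe's values in the tumour-derived cultures overlapped those of the other 4. Lama4 was at least 4.48-fold higher in tumour-derived Pik3ca/Trp53 and at least 3.85-fold higher in tumour-derived Apc/Trp53 than in the source.

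Lama1, the alpha chain of the embryonic laminin-111, was highest in tumour-derived Apc/Trp53. Its probe read -2.81 in tumour-derived Pik3ca/Trp53, dim in Pik3ca/Trp53, 0.47 in tumour-derived Apc/Trp53, -2.94 in Apc/Trp53, -2.27 in Trp53 loss and dim in control. The tumour-derived Apc/Trp53 culture exceeded its source 10.6-fold, and tumour-derived Pik3ca/Trp53 exceeded its source at least 1.77-fold. Trp53 loss was at least 3.08-fold above control, and Pik3ca/Trp53 at least 2.58-fold below Trp53 loss. Lamc3, a gamma chain, had a probe at -2.41 in tumour-derived Apc/Trp53, at least 3.71-fold above its source and dim elsewhere. Its second probe was dim on all 6 arrays, so the 2 probes disagree. Both probes of Lama2, the alpha chain of muscle laminin, were dim on all arrays.

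Of the other laminin-binding alpha chains, Itga7, known from muscle, was low in both Pik3ca/Trp53 cultures and lowest in tumour-derived Apc/Trp53. One probe read 1.68 in tumour-derived Pik3ca/Trp53, 1.33 in Pik3ca/Trp53, -0.05 in tumour-derived Apc/Trp53, 3.06 in Apc/Trp53, 3.38 in Trp53 loss and 2.95 in control. The other read -3.18 in tumour-derived Pik3ca/Trp53, -3.52 in Pik3ca/Trp53, dim in tumour-derived Apc/Trp53, -1.45 in Apc/Trp53, -1.11 in Trp53 loss and -1.68 in control. Both gave the same order of cultures. Itga7 was 4.69-fold lower in Pik3ca/Trp53 than in Trp53 loss (-2.23 ± 0.26, SD between 2 probes) and at least 7.44-fold lower in tumour-derived Apc/Trp53 than in its source. Itga3, the alpha chain of another laminin-332 receptor, lay within 2-fold in the 5 comparisons, with a range of 1.31 log2 units over the cultures for its brighter probe. Its partner Itgb1, the beta chain of most integrins, ranged from 4.65 to 5.36 by its brighter probe.

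Among RGD-binding chains, 3 of 5 compared were at least 2-fold higher in tumour-derived Pik3ca/Trp53 than in its source, as were 11.3% of all genes. Itgb3, which pairs with the alphav chain on many cells and with alphaIIb on platelets, had the widest range of all members. One probe read 4.14 in tumour-derived Pik3ca/Trp53, -3.35 in Pik3ca/Trp53, dim in tumour-derived Apc/Trp53, -3.91 in Apc/Trp53, -2.96 in Trp53 loss and -2.26 in control. The other read -1.09 in tumour-derived Pik3ca/Trp53 and was dim on the other 5 arrays. By both probes the culture stood alone, at least 32.3-fold above its source (5.01) and at least 24.3-fold above control. The first probe alone, measured on both arrays, gave a log2 difference of 7.49 from the source.

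Itga8, which pairs with beta1 and binds nephronectin, had a similar pattern. It read 0.81 in tumour-derived Pik3ca/Trp53 and -3.17 in Pik3ca/Trp53, and was dim in the other 4 cultures. The tumour-derived culture was 15.8-fold above its source, and the source at least 1.75-fold above Trp53 loss. Itga11, a collagen receptor chain known from fibroblasts, read -2.03 in tumour-derived Pik3ca/Trp53, at least 3.03-fold above its source, and was dim in the other 5.

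Itgb5, a vitronectin receptor chain that pairs with alphav, was lowest in the 2 source cultures. It read 4.54 in tumour-derived Pik3ca/Trp53, 2.47 in Pik3ca/Trp53, 4.84 in tumour-derived Apc/Trp53, 3.80 in Apc/Trp53, 4.63 in Trp53 loss and 4.98 in control. Pik3ca/Trp53 was 4.45-fold below Trp53 loss. The tumour-derived cultures were 4.2-fold (Pik3ca/Trp53) and 2.05-fold (Apc/Trp53) above their sources, and 1.35-fold and 1.1-fold below control. Itgb6, the epithelial beta chain that activates latent TGF-beta with alphav, showed no such return by its brighter probe. Its brighter probe read 0.98 in tumour-derived Pik3ca/Trp53, 1.26 in Pik3ca/Trp53, 0.04 in tumour-derived Apc/Trp53, 0.19 in Apc/Trp53, 1.42 in Trp53 loss and 2.24 in control. Control was highest. Itgb6 was 2.08-fold lower in Trp53 loss than in the control culture and 2.74-fold lower in Apc/Trp53 than in Trp53 loss. Normexp background correction took both of those differences under 2-fold, to -0.83 and -0.74, and the brighter probe alone gave -0.82 for the first. Over 2 probes both tumour pairs lay within 1.08-fold. The probes disagree in the Pik3ca/Trp53 pair (SD 0.54), where the weaker one read -2.46 in the tumour-derived culture and -2.95 in its source. The fibronectin receptor chain Itga5 lay within 2-fold in all 5 comparisons.

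The alphav chain itself, Itgav, which is not among the 30 genes, read 4.77 in tumour-derived Pik3ca/Trp53, 3.97 in Pik3ca/Trp53, 4.24 in tumour-derived Apc/Trp53, 3.61 in Apc/Trp53, 4.55 in Trp53 loss and 5.17 in control. It was thus measured in all cultures, with the same low places as Itgb5. Of the 9 integrins with other names, 5 were compared in each comparison. Itgam was 2.01-fold higher in tumour-derived Pik3ca/Trp53 than in its source, and no other was 2-fold apart.

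**Figure D4:**
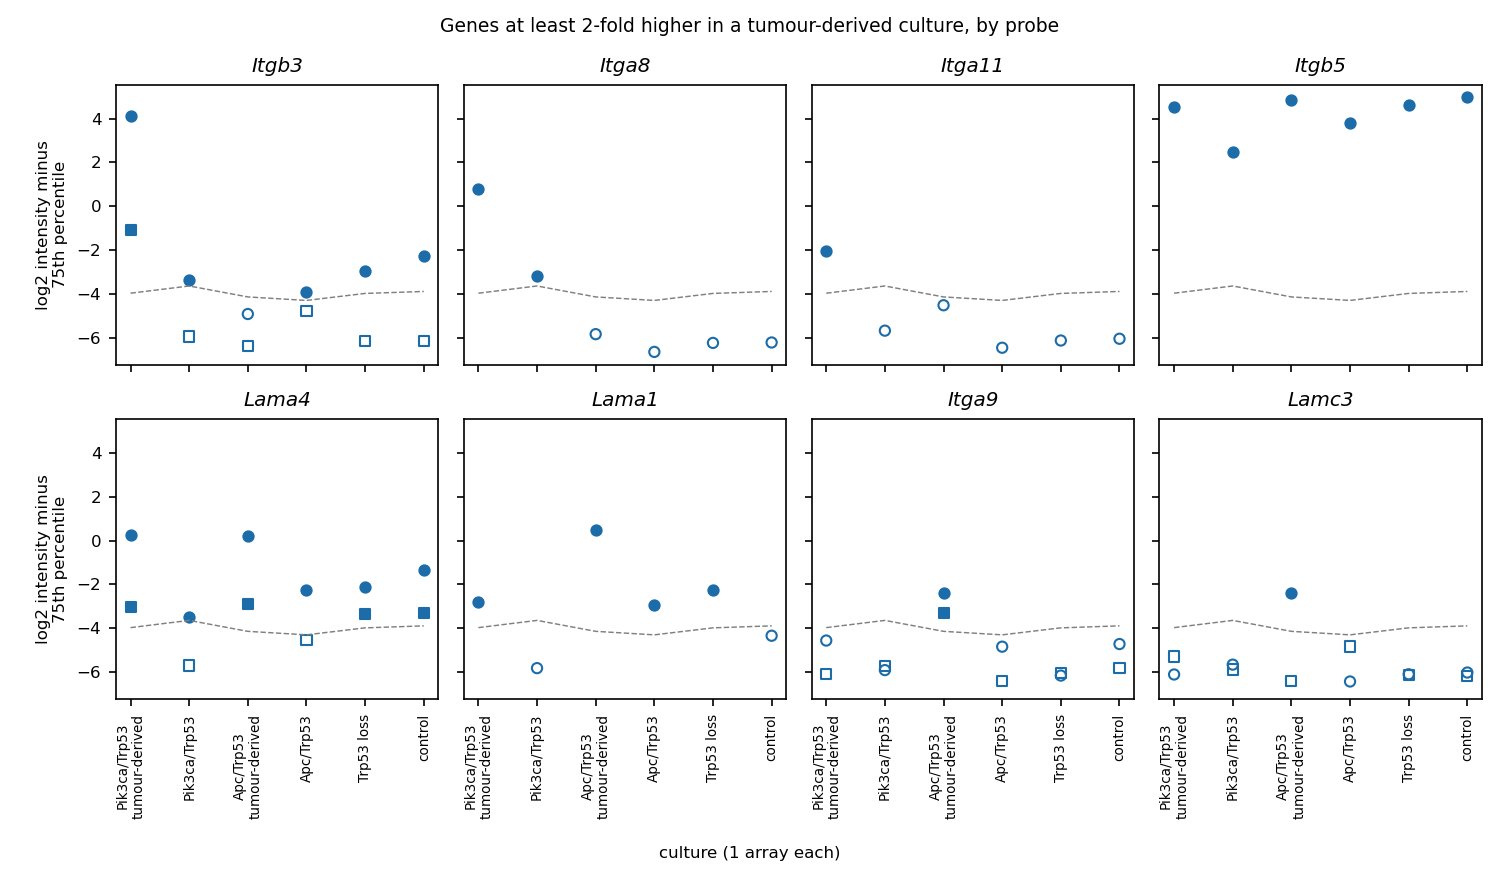
Levels of 8 genes that were at least 2-fold higher in a tumour-derived culture than in its source, as log2 intensity minus the array's 75th percentile in 6 cultures. Marker shapes are probes, open markers are dim and the dashed line is the array floor; Itgb3, Itga8 and Itga11 are high in tumour-derived Pik3ca/Trp53, Lama1, Itga9 and Lamc3 in tumour-derived Apc/Trp53, and Itgb5 and Lama4 in both relative to their sources.

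Some fibroblast markers were also higher in the tumour-derived cultures than in their sources. Of 9 such markers, 5 were above background in tumour-derived Pik3ca/Trp53 and 1 in its source, with summed linear intensity of 19.3 and 12.5 times the 75th percentile. Pdgfra read -0.40 and Vim -0.48 in that culture and both were dim in the source, while Col3a1, Dcn and Lum were dim in both. In tumour-derived Apc/Trp53, 4 of 9 were above background, against 1 in its source, with sums of 7.77 and 7.62. Pdgfra read -1.36 and Vim -2.27 there, and both were dim in its source. Control also had Vim above background, at -2.42. Acta2, above background on every array, was the brightest fibroblast marker and dominated the fibroblast sums. It read 4.13 in tumour-derived Pik3ca/Trp53 and 3.62 in its source, and 2.80 in tumour-derived Apc/Trp53 and 2.89 in its source. Of the endothelial markers 3 of 7 were above background in tumour-derived Pik3ca/Trp53 and 2 in its source, with sums of 0.574 and 1.35. In tumour-derived Apc/Trp53 and its source there were 4 of 7 each, with sums of 4.61 and 3.65. Smooth and skeletal muscle markers had 2 of 5 (Cnn1 and Myog) above background in tumour-derived Apc/Trp53 and none in its source. Leukocyte markers had 5 of 9 above background in tumour-derived Apc/Trp53 and 4 in its source, with sums of 9.78 and 15.7, and 4 in tumour-derived Pik3ca/Trp53 and 5 in its source, with sums of 26.6 and 16.9. Among them Ptprc read -2.54 in tumour-derived Apc/Trp53 and was dim on the other 5 arrays, while Cd68 was 4.6-fold lower in that culture than in its source. Of 4 platelet markers only Itga2b (-3.81) was above background in tumour-derived Pik3ca/Trp53, and Itga2b (-3.02) and Pf4 in its source, with sums of 0.113 and 0.297. The part of these cell types in Itgb3, Itga8, Itga11, Lama4, Lama1, Itga9 and Lamc3 was not tested.

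Promoter windows of 300 bases, 250 before and 50 after the start, were at hand for 4 of the 7 genes higher in tumour-derived Pik3ca/Trp53, and are shown because these genes were higher there than in the source. They are RefSeq sequences (GRCm38.p6), 5′ to 3′ on the gene's strand, and for Lamb3, with 2 starts, the window with more matches is given. Capitals mark matches on either strand, none of which overlap here, to 4 motifs, namely the AP-1 motif TGANTCA (in 7.81% of 32851 promoter windows), the TEAD motif CATTCC (14.7%), the GC box GGGCGG (35.7%) and the TATA box TATAAA (13.6%).
Itga8 (chr2:12301895-12302194, minus strand): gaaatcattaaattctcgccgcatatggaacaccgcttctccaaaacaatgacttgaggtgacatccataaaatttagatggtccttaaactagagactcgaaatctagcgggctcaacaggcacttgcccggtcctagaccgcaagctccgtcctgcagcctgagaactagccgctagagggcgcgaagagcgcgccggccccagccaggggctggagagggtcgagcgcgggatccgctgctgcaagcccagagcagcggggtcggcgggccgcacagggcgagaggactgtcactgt
Itga11 (chr9:62677605-62677904, plus strand): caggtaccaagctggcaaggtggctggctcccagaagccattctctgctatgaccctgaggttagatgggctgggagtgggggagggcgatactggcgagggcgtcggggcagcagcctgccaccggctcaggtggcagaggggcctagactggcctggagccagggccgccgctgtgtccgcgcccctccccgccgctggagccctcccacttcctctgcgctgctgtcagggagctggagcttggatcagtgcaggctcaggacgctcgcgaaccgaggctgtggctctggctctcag
Itgb5 (chr16:33829415-33829714, plus strand): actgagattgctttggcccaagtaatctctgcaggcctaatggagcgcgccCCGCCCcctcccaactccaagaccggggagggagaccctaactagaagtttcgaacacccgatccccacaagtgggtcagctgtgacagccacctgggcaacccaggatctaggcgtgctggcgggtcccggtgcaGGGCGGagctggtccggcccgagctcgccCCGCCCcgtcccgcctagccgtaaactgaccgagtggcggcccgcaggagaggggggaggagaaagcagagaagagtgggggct
Lamb3 (chr1:193301993-193302292, plus strand): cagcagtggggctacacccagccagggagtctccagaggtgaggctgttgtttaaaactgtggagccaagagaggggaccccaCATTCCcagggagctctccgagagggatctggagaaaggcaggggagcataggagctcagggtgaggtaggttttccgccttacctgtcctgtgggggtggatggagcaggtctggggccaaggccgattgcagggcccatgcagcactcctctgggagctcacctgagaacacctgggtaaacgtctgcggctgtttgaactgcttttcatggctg
The Itgb5 window held 3 GC box matches and the Lamb3 window 1 TEAD match. None of the 4 motifs was found in the Itga8 and Itga11 windows, and no motif was common to the 4 genes. A match is a run of letters and not a measured binding site.

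Collagen receptor chains differed both before inoculation and in the Pik3ca/Trp53 tumour pair. In that pair Itga11 was higher, as given above, and Itga1 lower. Itga2, the epithelial collagen receptor chain, read 2.06 in tumour-derived Pik3ca/Trp53, 2.17 in Pik3ca/Trp53, 0.88 in tumour-derived Apc/Trp53, 0.97 in Apc/Trp53, 2.20 in Trp53 loss and 3.44 in control by its brighter probe. Control was highest and both Apc/Trp53 cultures lowest. Itga2 was 2.33-fold lower in Trp53 loss than in the control culture (-1.22 ± 0.04, SD between 2 probes) and 2.26-fold lower in Apc/Trp53 than in Trp53 loss (-1.17 ± 0.08), the second of which was -0.85 with normexp.

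Itga1, the other widespread collagen receptor chain, had weak and disagreeing probes. One read -2.85 in Pik3ca/Trp53, -2.36 in Apc/Trp53, -1.54 in Trp53 loss and -3.23 in control and was dim in both tumour-derived cultures. The other read -3.22 in tumour-derived Apc/Trp53 and -3.48 in Apc/Trp53 and was dim elsewhere. By the first, Trp53 loss was 3.22-fold above control, Pik3ca/Trp53 2.47-fold below Trp53 loss, and tumour-derived Pik3ca/Trp53 at least 2.12-fold below its source. Itga10 lay within 2-fold in the 5 comparisons.

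Itga4, which pairs with beta1 or beta7 and is known from leukocytes, read -0.91 in Trp53 loss by one probe and was dim in the other 5 cultures. It was there at least 7.9-fold above control, and it was at least 6.6-fold lower in Pik3ca/Trp53 and at least 10.5-fold lower in Apc/Trp53 than in Trp53 loss. Its second probe was dim on all 6 arrays, Trp53 loss included, and leukocyte markers had 4 of 9 genes above background in Trp53 loss and 4 in control. The part of leukocytes in this signal was not tested, and Ptprc was dim in both. Itga9, which binds tenascin and other ligands, read -2.39 and -3.31 in tumour-derived Apc/Trp53 by its 2 probes and was dim elsewhere, a difference of at least 2.74-fold from the source. Itgb2, the leukocyte beta chain, was near background, with -3.65 in tumour-derived Pik3ca/Trp53, -4.27 in Apc/Trp53, -3.39 in control and dim signals in the other 3. The 2 probes of Itgb7 disagree, as one was above background on all 6 arrays with Pik3ca/Trp53 highest, and the other was dim except at -2.76 in tumour-derived Pik3ca/Trp53.

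Against control, the values of the 4 cultures with a second allele are shown side by side, and they share the single control array. Tumour-derived Pik3ca/Trp53 had 4 of 25 genes 2-fold higher (12.9% of all genes) and 6 lower (10.9%). Pik3ca/Trp53 had 1 of 23 higher (9.68%) and 9 lower (8.12%). In tumour-derived Apc/Trp53 3 of 25 were higher (11.9%) and 10 lower (11.7%). Apc/Trp53 had none of 23 higher (6.08%) and 8 lower (8.55%). The genes lower in tumour-derived Apc/Trp53 included Itgb4 at 3.87-fold and Itgb6 at 6.13-fold.

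With dim signals as measured, the 3 cultures with Trp53 loss before inoculation were all below control for 16 of 25 genes, as were 24.6% of all genes, and all above it for 4 (33.8% of all genes). Among the 16 were Itgb4, Lama3, Lamb3, Itga2 and Itgb6. Itgb2 was also among the 16, though dim in Trp53 loss and Pik3ca/Trp53. Itga4 was among the 4, though dim in Pik3ca/Trp53, Apc/Trp53 and control, so its order there rests on dim signals. In limma, with Benjamini-Hochberg adjustment over 15022 genes, none of the 25 passed an adjusted p of 0.05 and none of all genes did (0%). Lama3 had the lowest adjusted p of the 25, 0.261, with a log2 difference of -2.32 (SE 0.38), and Itgb4 had -1.17 (SE 0.26, limma adjusted p = 0.406). At an unadjusted p under 0.05 there were 1262 genes, among them Itgb4 and Lama3. The fit assumes that the single control varies like the 3 cultures it is set against. It takes these 3 cultures of different genotype as replicates of Trp53 loss, and slide row separates them from control as well.

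Counting dim signals as measured, both tumour-derived cultures were above both sources for 6 of 24 genes (11.2% of all genes), namely Itgb1, Itgb2, Itgb5, Lama1, Lama4 and Lamb1, and below both for 3 (19.5% of all genes), namely Itga1, Itgb7 and Lama5. Itgb2 was dim in Pik3ca/Trp53 and tumour-derived Apc/Trp53, with no difference in either pair once dim signals were raised to the floor, and Itgb7 rests on 1 of its 2 disagreeing probes. Lama5 differed by -0.03 in each pair, less than the median SD between copies of a probe (0.0389 to 0.081). For Itga1, 1 of 2 probes was higher in tumour-derived Apc/Trp53 (-3.22) than in its source (-3.48). The limma fit with genotype as a block called none of 24 and none of 14216 genes (0%) at an adjusted p of 0.05, with 553 genes and 4 of these (Itga1, Itgb5, Lama1 and Lama4) at an unadjusted p under 0.05. Lama4 had a log2 difference of 2.63 (SE 0.44, limma adjusted p = 0.997) on signals as measured, and Itgb5 1.55 (SE 0.41, limma adjusted p = 0.997). With 2 pairs the fit has few degrees of freedom, and these 2 genes were higher in both pairs.

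Other genes of the basement membrane and of adhesion were described from lists of 20 basement membrane genes, 24 integrin ligands and 30 focal adhesion genes. In tumour-derived Pik3ca/Trp53 against its source, 5 of 14 basement membrane genes compared were 2-fold higher and 1 lower, where 11.3% and 9.45% of all genes were. Sparc, a collagen-binding matrix protein, was at least 30.5-fold higher, Nid1, which links laminin to collagen IV, at least 10.4-fold, and the anchoring fibril collagen Col7a1 8.19-fold, and the perlecan gene Hspg2 was 2.14-fold lower. In tumour-derived Apc/Trp53 against its source, 5 of 14 were higher (9.27% of all genes) and 2 lower (6.62%). There the collagen IV chains Col4a1 and Col4a2 were 17.2-fold and 12-fold higher, Sparc at least 7.41-fold higher, Col4a6 at least 3.42-fold lower and Col7a1 2.16-fold lower.

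Trp53 loss against control had 1 of 15 basement membrane genes higher (Ntn1, 2.13-fold) and 5 lower, where 4.43% and 5.7% of all genes were, with Col4a1 5.05-fold, Col4a2 4.55-fold and Col4a4 at least 3.08-fold lower. Against Trp53 loss, Pik3ca/Trp53 had 3 of 12 higher (7.95% of all genes) and 2 lower (6.18%), and Apc/Trp53 1 of 13 higher (3.55%) and none lower (4.47%). Col4a1 was higher in both, 4.32-fold in Pik3ca/Trp53 and 2.56-fold in Apc/Trp53.

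Of the integrin ligands, 7 of 18 were 2-fold higher and 3 lower in tumour-derived Pik3ca/Trp53 than in its source, where 11.3% and 9.45% of all genes were. Postn, a ligand of alphav beta3 and alphav beta5, was at least 89-fold higher, the RGD ligands Spp1 and Mfge8 were 6.27-fold and 5.11-fold higher, and Egfl6, Npnt and Thbs1 were 13-fold, 2.44-fold and 2.18-fold lower. Npnt is the nephronectin that Itga8 binds, so ligand and receptor chain differed in opposite directions there. In tumour-derived Apc/Trp53, 3 of 14 were higher, where 9.27% of all genes were (Vcam1 3.75-fold, Adam15 2.24-fold, Spp1 2.07-fold) and 3 lower, where 6.62% were (Ccn2 4.1-fold, Ccn1 2.94-fold, Icam1 at least 2.25-fold). Vcam1 is a ligand of integrins with the alpha4 and alpha9 chains. In Trp53 loss against control 2 of 14 were higher (4.43% of all genes), with Spp1 7.35-fold, and 2 lower (5.7%), Fn1 4.65-fold and Tgfb1 at least 2.77-fold. Pik3ca/Trp53 had none of 14 higher (7.95% of all genes) and 4 lower (6.18%) than Trp53 loss, and Apc/Trp53 none of 14 higher (3.55%) and 2 lower (4.47%), with Spp1 and Ccn2 among the lower genes in both.

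Focal adhesion genes link integrins to actin inside the cell. Trp53 loss had 1 of 28 of them higher (4.43% of all genes) and 1 lower (5.7%) than control. Pik3ca/Trp53 had 1 of 28 higher (7.95%) and 2 lower (6.18%) than Trp53 loss, and Apc/Trp53 the same counts, where 3.55% and 4.47% of all genes were called. Tumour-derived Pik3ca/Trp53 had 4 of 29 higher (11.3%) and 1 lower (9.45%) than its source, with the integrin activator kindlin-2 (Fermt2) 4.04-fold higher. Tumour-derived Apc/Trp53 had 3 of 28 higher (9.27%) and 4 lower (6.62%), with the tensin Tns4 4.65-fold higher. Lims2 was lower in both tumour-derived cultures, 4.69-fold in Pik3ca/Trp53 and 5.07-fold in Apc/Trp53.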

How the data were processed

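Total RNA of 6 cultures was labelled with Cy3 and hybridised to 6 arrays, 1 for each group. Per the file headers and the submitters' processing notes, the authors deposited scanner files from Agilent Feature Extraction (version 11.0.1.1). The intensity per spot in these deposited files is background-subtracted by that software, per the file headers, and not scaled between arrays. The authors also deposited a table of log2 values of 2047 probes, whose differences between arrays had a slope of 1.000 against those of the scanner files. Its column medians were -0.05 in tumour-derived Pik3ca/Trp53, 0.15 in Pik3ca/Trp53, -0.20 in tumour-derived Apc/Trp53, -0.32 in Apc/Trp53, -0.02 in Trp53 loss and 0.03 in control. How it was centred and scaled between arrays is not given in the sources used here. It holds 3 probes of these genes and served as an alternative.

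Spots that were controls or flagged as outliers were dropped, and copies of a probe averaged. Values were log2 intensity minus the array's 75th percentile. Probe accessions were matched to RefSeq, which named 34561 of 56605 probes. Counts of genes at a 2-fold difference used dim signals raised to the array floor. The 2 fits used limma (version 3.58.1, R 4.3.3) on signals as measured, with Benjamini-Hochberg adjustment and a threshold of 0.05. Python 3.11.15 with pandas 2.3.3, numpy 2.4.6 and matplotlib 3.10.9 was used. Both steps were tested on simulated data with a planted change and equal noise on all arrays. That is a simpler setting than these cultures and checks the code alone. The number of arrays limits the precision.

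Among the 30 genes, 1 enters the counts and medians and is otherwise not reported here. Levels were given for Itgb4, Itga6, Lama3, Lamb3 and each gene at least 2-fold apart in a comparison, and genes of other lists were named when among the 3 with the largest differences of a list in a direction. The members and lists were chosen with earlier results of these data known. The counts of cultures without overlap, the promoters and motifs, and the genes in the panel plots were chosen after values were seen. Alternatives were scaling to the median, quantile normalization, normexp (offset 50), other filters and probe rules, the control as the array compared with, and the value table. Normexp was run on median spot and background signals, since the planned mean signal is not a column of the scanner files.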

Additional observations from a re-analysis of the deposited data

Results flagged for a closer look

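Itga6 and Itgb4, the chains of the laminin-332 receptor, were both higher than in the source in tumour-derived Pik3ca/Trp53 and both lower in tumour-derived Apc/Trp53. Itga6 had a log2 difference of 0.81 in the Pik3ca/Trp53 pair and -0.98 in the Apc/Trp53 pair, and Itgb4 had 0.97 and -0.90 in the same order of pairs. Of 23 genes compared in both pairs, these 2 had opposite differences of at least 0.5 log2 units each, a minimum set after these values were seen. That share was not above the one of all genes, as 11.3% of 13929 genes met the minimum. With 1 array for each culture, the difference between the pairs was not tested.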

How the results depend on the processing

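Counts of genes 2-fold apart moved by over 1.5 times under some alternatives. Trp53 loss against control had 7, and 4 with normexp, 4 with only probes above background on all 6 arrays, and 1 in the value table. Pik3ca/Trp53 against Trp53 loss had 6, and 2 in the value table, or 10 with the control as the array compared with. Apc/Trp53 against Trp53 loss had 4, and 2 with normexp, 1 in the value table, or 8 against control. The Pik3ca/Trp53 pair had 10, and 6 with probes above background on all arrays and 0 in the value table. The Apc/Trp53 pair had 6, and 3 with probes above background on all arrays and 1 in the value table. The stricter filter and the value table compare fewer genes by construction, and the setting with control compares with another culture. With normexp the calls over all genes fell as well. In Trp53 loss minus control they were 281 higher and 344 lower, against 636 and 818. The cause of the shifts with normexp was not tested. Quantile normalization gave 5 higher and 3 lower in the Apc/Trp53 pair.

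Of 33 named differences of at least 2-fold, 209 of 229 alternative values stayed at least 2-fold the same way. Part of these could not have changed, so the count overstates how stable the differences are. For a gene with 1 probe above background on all 6 arrays, such as Itgb4, the filter and probe settings return the main value. Leaving dim signals as measured cannot shrink a probe's difference. The sign turned once, for Itga1, from -1.31 in Pik3ca/Trp53 minus Trp53 loss to 0.38 with control as the array compared with. Itga1, Itga9, Itga11, Lama1 and Lamc3, with signals near background, were each under 2-fold with normexp in at least 1 comparison, as were Itgb6, Itga2 and Lamc1.

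In limma, every alternative run called 0 of these genes in both fits. These runs included leaving out each culture with Trp53 loss in turn. As the main fits called none of all genes, an unchanged count says little about stability. Quantile normalization called 76 of all genes in Trp53-loss cultures against control, where the other settings called 0, and without the genotype block the tumour-derived fit called 0. No paired analysis was possible because each group has 1 array, apart from this block of genotype. Weak signals, near the array floor, limit the low genes, and 1 array for each culture limits them all.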
